A study of Drosophila melanogaster with 18 samples.

Results

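In the progenitors of the adult fly midgut, the intestinal stem cells and enteroblasts (ISCs/EBs), 1567 genes were listed for both Ets21c binding and RNA polymerase II (PolII) occupancy, 3617 for Ets21c alone and 649 for PolII alone. The genes were found by matching the authors' deposited Ets21c and PolII lists of ISCs/EBs by gene ID, which gave 5833 genes of the 7153 in any of the 4 lists of the series, the other lists being those of enterocytes (ECs). Of 18277 annotated genes, 28.3% were listed for Ets21c, 12.1% for PolII, 8.57% for both, 19.7% for Ets21c alone and 3.55% for PolII alone. Over the 13968 protein-coding genes the same shares were 31.9%, 15.8%, 11.2%, 20.7% and 4.63%.

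The series used Targeted DamID (TaDa), in which a protein fused to the bacterial Dam methylase marks GATC sites near its contacts, in dissected midguts of mated females kept for 72 hours at 29°C. All flies carried UAS-GFP and tub-Gal80-TS with esg-Gal4, which is active in ISCs/EBs, or Myo1A-Gal4, which is active in ECs. They differed in the transgene, UAS-LT3-Dam, UAS-LT3-Dam-PolII or UAS-LT3-Dam-ets21c-RA, with 3 samples for each of 6 genotypes. The ISC/EB values rest on 3 Dam-PolII samples, 2 Dam-Ets21c samples (the authors left out replicate 2 as noisy) and 3 samples of Dam alone, each made from 50 pooled midguts. Both fusions were inserted at the same landing site and were translated at a low level from the construct, so Ets21c binding was that of an added protein of 1 isoform, in unchallenged guts. For each gene, the height is the log2 ratio of a fusion over Dam alone, for Ets21c of the peak assigned to the gene and for PolII as the mean over the gene. The files hold 1 pooled height per gene, and the read depth is unknown. No spread between replicates can be given, and all comparisons are descriptions without a test. Both heights were divided by the same Dam samples.

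ETS proteins are transcription factors that bind DNA through a conserved domain at sites with a GGAA core, and many act below the Ras/ERK and JNK kinase cascades. Ets21c is known as a JNK-responsive member of the family. PolII spread over a gene body is the usual TaDa readout of transcription, whereas a factor peak reports presence at DNA and is assigned here to genes by their position. The genes of the 3 classes thus ask which loci with Ets21c nearby also carried polymerase in the same cells.

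The driver was checked against cell type markers. PolII was listed for 10 of 12 progenitor markers, including the Snail-type factor esg (1.46) and the Sox factor Sox21a (1.82), against 15.8% of protein-coding genes. It was also listed for 5 of 19 EC markers (26.3%), among them GATAe (1.54), and 2 of 7 hemocyte markers (28.6%, srp and crq), both above that share. Below it were 1 of 15 enteroendocrine markers (svr, 0.83), 2 of 14 visceral muscle markers (Tm1 and how) and 1 of 7 neuron markers (elav, 0.38). Ets21c was listed for 9 of the 10 PolII-listed progenitor markers, the exception being Sox100B (PolII 0.52), and for mira (0.28), which had no PolII. Of the other marker lists, Ets21c alone was listed for 4 EC, 3 enteroendocrine, 2 muscle, 0 hemocyte and 2 neuron genes, against 20.7% of protein-coding genes. Every PolII-listed marker of these lists also had Ets21c, which are few genes beside the 70.7% of the whole PolII list.

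The gene with the largest Ets21c height among those with both was CG43658 (Ets21c 1.46, PolII 0.76). It was followed by kay, which encodes Fos, the AP-1 subunit that acts below JNK (Ets21c 1.39, PolII 1.47), and CG6424 (1.36 and 0.996). The gene dco, a casein kinase, had 1.22 and 0.59, and rhea, which encodes talin, 1.20 and 0.65. Also among the first 10 were Cyp6a20 (1.17 and 0.99), Asx, a Polycomb group gene (1.12 and 0.31), pigs (1.12 and 0.58) and Myo61F, a class I myosin (1.10 and 1.01). PolII heights of these genes thus ran from close to the lowest listed value, 0.30, to well above the class median, 0.89.

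Among genes with both, the largest PolII heights were those of Kaz1-ORFB (PolII 2.62, Ets21c 0.75), Sfp33A3 (2.53 and 0.66), ifc, a dihydroceramide desaturase (2.4 and 0.74), and mRpL20, a mitochondrial ribosomal protein (2.4 and 0.51). Then came Acbp5 (2.37 and 0.40), CG5399 (2.35 and 0.49), RpLP2 of the ribosomal stalk (2.28 and 0.49), ms(3)K81 (2.25 and 0.40), CG45428 (2.24 and 0.63) and the histone gene His4r (2.23 and 0.45). By the sum of both heights, kay, CG11752 (Ets21c 0.86, PolII 2.13), CG44242 (0.66 and 2.19) and ATPsynC, a subunit of the ATP synthase (0.73 and 2.10), joined 6 of these among the first 10.

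PolII alone was highest at CG6770 (2.53), CG34232 (2.42), CG44250 (2.36) and CG34194 (2.31). The others of the first 10 were CG30269 (2.23), Trx-2, a thioredoxin (2.19), CG44013 (2.16), hoip, which encodes a protein of small ribonucleoprotein particles (2.12), CG30273 (2.12) and cyp33, a peptidyl-prolyl isomerase (2.08). These heights overlapped those of the highest genes with both. The genes CG30269 and CG30273 are annotated with the same start. In ECs, 6 of the 10 were listed for Ets21c, with CG34194 at 0.94 and Trx-2 at 0.71.

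Ets21c alone was highest at lncRNA:CR46110 (1.39), bnk, an embryonic cellularization gene (1.37), mesh, which encodes a septate junction protein (1.37), Cyp6a21 (1.17) and Cpsf160, a subunit of the cleavage and polyadenylation complex (1.12). CG9184 and lncRNA:CR45166 (both 1.10), CG15125 and lncRNA:CR44214 (both 1.08) and Slob, which encodes a binding partner of a potassium channel (1.07), completed the first 10. Most of these values are those of a neighbor: lncRNA:CR46110 had the value of kay, Cyp6a21 that of Cyp6a20, Cpsf160 that of Asx, and CG9184 and lncRNA:CR45166 that of Myo61F.

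The sequences before the start of 5 genes, chosen after their values were seen among genes with large heights of the 3 classes, are shown as examples with and without the motifs searched, and do not stand for their classes. Each line gives the 250 bases before the outermost annotated start on the gene's strand, from the RefSeq Release 6 genome (dm6), in lower case with a motif in capitals. kay and ifc had Ets21c and PolII, at chr3R:29765745-29765994 and chr2L:5986098-5986347. RpL10 (Ets21c 1.01, PolII 1.31), at chr3L:23095472-23095721 on the minus strand, also had both. bnk, at chr3R:31193112-31193361, had Ets21c alone, and RpL28 (PolII 2.0), at chr3L:3222961-3223210 on the minus strand, had PolII alone. Capitals mark the ETS core CCGGAA (or TTCCGG, the same on the other strand) in RpL10 and bnk and the DRE site TATCGATA in ifc and RpL28. In lower case, RpL10 and RpL28 also held the TATA box TATAAA and ifc the letters GAGAG on the other strand, whereas kay held none of the 6 motifs searched.
kay: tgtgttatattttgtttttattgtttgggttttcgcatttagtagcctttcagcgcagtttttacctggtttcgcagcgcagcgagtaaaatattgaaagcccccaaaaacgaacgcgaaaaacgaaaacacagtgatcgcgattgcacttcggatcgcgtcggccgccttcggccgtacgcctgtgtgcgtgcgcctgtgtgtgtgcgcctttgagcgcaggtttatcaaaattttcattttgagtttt
ifc: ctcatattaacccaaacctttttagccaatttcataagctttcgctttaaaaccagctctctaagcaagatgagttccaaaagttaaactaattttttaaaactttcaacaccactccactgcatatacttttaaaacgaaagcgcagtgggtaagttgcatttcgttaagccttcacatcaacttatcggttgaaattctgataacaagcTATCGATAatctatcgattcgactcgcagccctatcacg
RpL10: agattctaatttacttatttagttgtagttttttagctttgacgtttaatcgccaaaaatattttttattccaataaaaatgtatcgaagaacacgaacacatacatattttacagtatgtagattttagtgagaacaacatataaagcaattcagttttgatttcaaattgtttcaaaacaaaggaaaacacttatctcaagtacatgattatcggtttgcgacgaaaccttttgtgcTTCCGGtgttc
bnk: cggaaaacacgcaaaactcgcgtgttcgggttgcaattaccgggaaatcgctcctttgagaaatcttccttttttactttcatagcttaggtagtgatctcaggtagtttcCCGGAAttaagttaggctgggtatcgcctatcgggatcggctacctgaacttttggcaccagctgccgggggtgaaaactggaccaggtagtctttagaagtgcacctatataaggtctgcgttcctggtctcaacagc
RpL28: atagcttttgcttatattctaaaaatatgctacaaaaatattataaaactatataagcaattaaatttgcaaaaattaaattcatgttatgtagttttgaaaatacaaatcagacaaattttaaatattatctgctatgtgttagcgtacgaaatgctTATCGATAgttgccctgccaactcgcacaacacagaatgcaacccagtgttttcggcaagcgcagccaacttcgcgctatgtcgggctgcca

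The ETS core was no more frequent in promoters of genes with both than over all promoters. Ets21c peaks were assigned to genes up to 5 kb away, and peak coordinates were not used. The promoter searched thus need not hold the bound sequence, and these shares do not say how frequent a motif is in bound DNA. Each motif was searched on both strands of the 300 bases from 250 before to 50 after the start of every protein-coding gene, where a match is a run of letters and not a site. The ETS core CCGGAA was found in 6.2% of promoters with Ets21c and PolII, 7.27% with Ets21c alone, 8.96% with PolII alone and 6.77% of all. The longer CCGGAAGT, which contains it, was found in 3 of 1565, 19 of 2889 and 1 of 647 promoters of the 3 classes and in 53 of 13968 in all. TGANTCA, the AP-1 site, was found in 5.88%, 6.89% and 6.65% against 6.18% of all promoters. TATCGATA, bound by the DREF factor of proliferation and housekeeping genes, was more frequent in all 3 classes than over all promoters (13.6%, 10.6% and 16.5% against 9.36%), and highest with PolII alone. TATAAA, the TATA box, was least frequent in genes with both (40.3%) and most frequent with PolII alone (49.6%), against 45.8% in all. GAGAG, bound by GAGA factor, was searched after the data were seen and went the other way, with 35.7% in genes with both, 31.6% with Ets21c alone, 25.3% with PolII alone and 29.7% in all promoters.

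Over the genes with both, the Ets21c height varied little with the PolII height. From the lowest to the highest of 4 equal groups by PolII height, the median Ets21c height was 0.54, 0.53, 0.54 and 0.55. In the other direction, the median PolII height over the 4 groups by Ets21c height was 0.84, 0.91, 0.95 and 0.87. When the genes were sorted by both groupings, each of the 16 combinations held between 80 and 112 genes, where an even spread would put 97.9. The PolII height was above the Ets21c height in 1239 of the 1567 genes (79.1%), although the scales are not the same, since 1 is the mean over a gene and the other that of a peak.

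**Figure D1:**
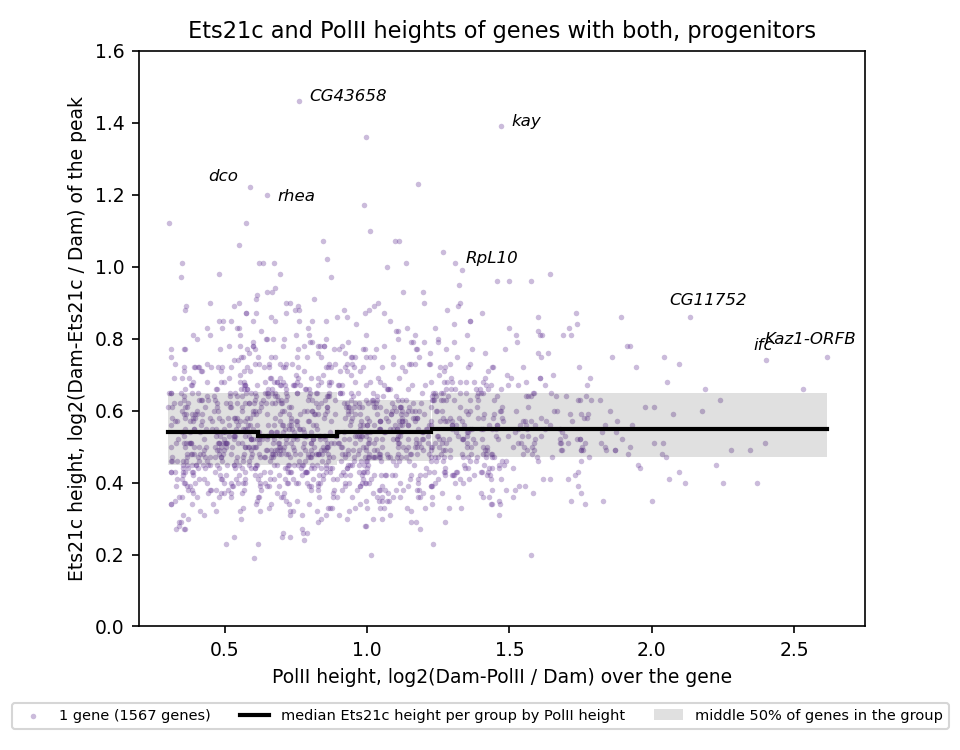
Ets21c height (y axis, log2 ratio over Dam) against PolII height (x axis, log2 ratio over Dam) for the 1567 genes with both in ISCs/EBs, 1 point per gene, with named genes of the text. Black lines are the median Ets21c height in each of the 4 groups by PolII height and gray bands the middle 50% of its genes. The medians stay between 0.53 and 0.55 across the PolII range.

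Whether a gene was in the other list did vary with height. Among PolII-listed genes, the share with Ets21c was 80.6% in the lowest of 10 equal groups by PolII height and 62.9% and 67.1% in the highest 2. Among Ets21c-listed genes, the share with PolII was 19.1% in the lowest of 10 groups by Ets21c height and 36.2% in the highest. The PolII height had a median of 0.89 with Ets21c (quartiles 0.62 and 1.23) and 1.01 without (0.73 and 1.32). The FDR of PolII, which the authors modeled by gene size, was also lower with Ets21c. Its medians were 0.000268 with and 0.00269 without Ets21c in the authors' deposited table. An Ets21c FDR listed as 0 was found for 145 genes with both (9.25%) and 172 with Ets21c alone (4.76%).

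**Figure D2:**
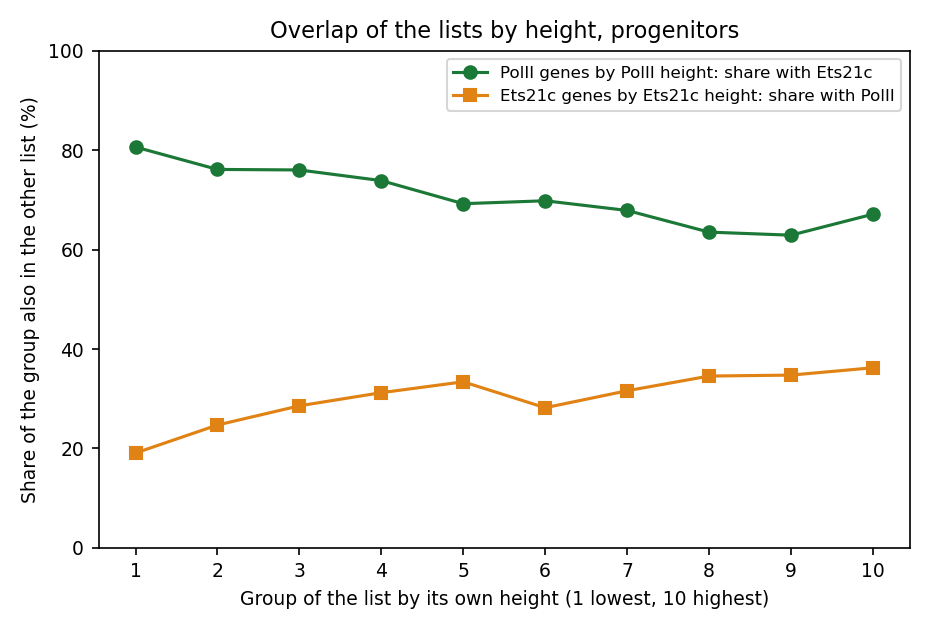
Share of genes also in the other list (y axis, %) for 10 equal groups of each list ordered by its own height (x axis, 1 lowest to 10 highest), ISCs/EBs. PolII genes (green circles) go from 80.6% in the lowest group to 62.9% and 67.1% in the highest 2. Ets21c genes (orange squares) go from 19.1% to 36.2%. Gene length is not held equal here. Within each of 4 groups of gene length, the share of PolII genes with Ets21c was instead higher above the median PolII height.

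Gene length differed between the classes and turned the order of the PolII heights around. Protein-coding genes with both had a median length of 5519 bp, those with Ets21c alone 2486 bp, those with PolII alone 2405 bp and all protein-coding genes 2164.5 bp. The share of PolII genes with Ets21c was 46.0%, 54.8%, 66.3% and 85.5% from the shortest to the longest of 4 equal groups of genes (limits at 1178, 2164 and 4999 bp), and the share of Ets21c genes with PolII 14.6%, 24.3%, 33.6% and 50.1%. Listed PolII heights also depended on length, with a lowest value of 1.01 in the shortest group and 0.30 in the longest. Within every length group the median PolII height was higher with Ets21c than without: 1.58 against 1.45, 1.24 against 1.14, 0.97 against 0.83, and 0.68 against 0.56.

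The same order was seen when PolII genes of each length group were divided at the median PolII height of that group. In the shortest group 39.4% of the genes below it and 52.5% of those above it had Ets21c. The shares were 49.1% and 60.6% in the next group, 58.1% and 74.6% in the third, and 82.9% and 88.1% in the longest. The median Ets21c height was slightly higher above than below the median PolII height in 3 of the 4 length groups and slightly lower in the shortest. Genes with both below and above the median PolII height of their length group had Ets21c medians of 0.53 and 0.51, 0.50 and 0.56, 0.51 and 0.53, and 0.54 and 0.57. Genes with both and genes with Ets21c alone had Ets21c medians, in the same order of length, of 0.51 and 0.52, 0.52 and 0.50, 0.52 and 0.50, and 0.56 and 0.53.

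**Figure D3:**
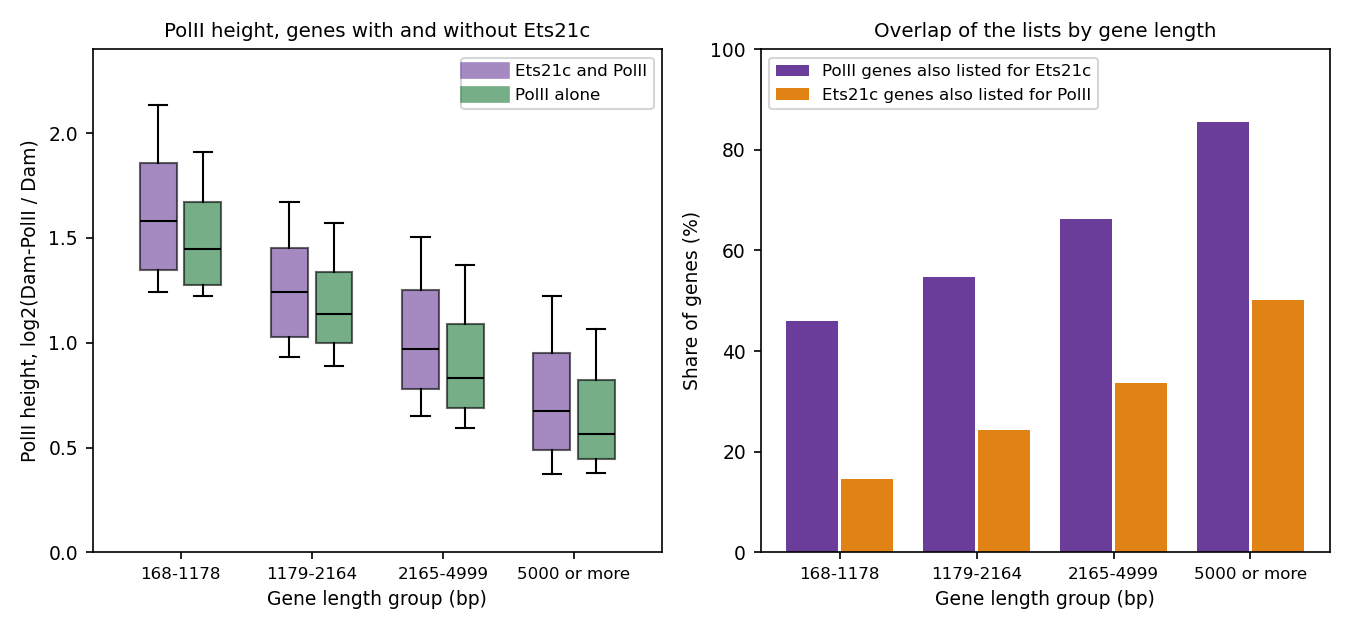
Left, PolII height (y axis, log2 ratio over Dam) by group of protein-coding gene length (x axis, bp) for genes with Ets21c and PolII (purple) and PolII alone (green), with boxes for quartiles, lines for medians and whiskers for the 10th and 90th percentiles of genes. Right, share of each list also in the other list (y axis, %), from 46.0% to 85.5% for PolII genes and from 14.6% to 50.1% for Ets21c genes.

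The classes also differed in surroundings. Genes with both held a median of 20 GATC sites, those with Ets21c alone 12 and those with PolII alone 8, against 10 for all protein-coding genes. Per kilobase the medians were 3.44, 4.22 and 3.16, against 3.88. Of genes with PolII alone, 70.0% had a gene listed for Ets21c within 5 kb. The share was 47.6% for genes in neither list and 62.6% for all protein-coding genes. It was 91.6% for genes with both and 91.2% for genes with Ets21c alone, and thus alike with and without PolII. How far a peak assigned to several neighbors raised both shares was not tested. The median distance of genes with PolII alone to the nearest Ets21c gene was 988 bp. Of these genes, 12.8% overlapped one, against 9.27% of genes in neither list and 21.4% of all. For genes with both and with Ets21c alone the overlap was 46.9% and 46.6%. By chromosome, the X held 18.3% of genes with both, 17.8% with Ets21c alone and 13.3% with PolII alone, against 15.7% of all.

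The PolII list was almost entirely protein-coding, whereas the Ets21c list was not. Which noncoding genes the authors scored for PolII is not known. The PolII FDR was modeled by gene size, and in the shortest protein-coding group no PolII height below 1.01 was listed. No PolII here thus means only that a gene was not listed, and whether these genes could pass was not tested. Genes with Ets21c alone included 591 noncoding RNA genes, 51 snoRNA genes, 40 tRNA genes, 28 pseudogenes and 3 snRNA genes, while genes with PolII included 2 pseudogenes and no such RNA gene. Ets21c was thus listed for 17.97% of annotated noncoding RNA genes and 31.9% of protein-coding genes. By name, 539 of 2725 lncRNA, antisense RNA and other CR-numbered genes had Ets21c alone, and the others listed were the same 2 pseudogenes, CG14117 with both (0.56 and 1.12) and CG11023 with PolII alone (1.26). For microRNA genes the count was 60 of 260, with ban, a growth-promoting microRNA of the Hippo pathway, at 0.73. It was 41 of 295 for tRNA genes and 54 of 306 for snRNA, snoRNA and scaRNA genes, with no PolII listed in either.

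Many genes with Ets21c alone shared a peak with a PolII gene. Neighbors in the Ets21c list with the same height and FDR were taken as 1 peak assigned to several genes, since 37.5% of adjacent listed genes had equal values against 0.274% of genes 50 places apart. By this measure, the 5168 Ets21c genes on the annotation formed 3242 peaks, of which 1435 were assigned to 2 to 8 genes. Of all peaks, 1356 (41.8%) had at least 1 PolII gene, and 603 had a PolII gene and a gene without PolII. These mixed peaks held 826 of the 3602 genes with Ets21c alone (22.9%), with 19.6% of the protein-coding ones and 36.3% of the others, and 692 of the genes with both (44.2%). The median Ets21c height of genes with Ets21c alone was 0.53 in mixed peaks and 0.51 in peaks without a PolII gene.

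In 688 neighboring pairs of a mixed peak with 1 PolII gene and 1 gene without, 374 pairs (54.4%) overlapped, 127 (18.5%) lay head to head, 129 (18.8%) followed each other on 1 strand and 58 (8.43%) lay tail to tail. The gap between head-to-head genes had a median of 437 bp. Overlapping pairs included Myo28B1, a myosin (PolII 1.10), with Slob, both at an Ets21c height of 1.07, and srp, a GATA factor (PolII 0.86), with lncRNA:CR44133, both at 1.02. The protease gene ru, which releases EGFR ligands (PolII 0.35), shared 0.97 with tRNA:Glu-CTC-3-1 inside it. RpL23 (PolII 1.46) lay head to head with CG13531, both at 0.96.

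The gene pair Pop2 and CG6928, chosen after its values were seen as a head-to-head pair with a high shared height, shows how close such starts can be. Pop2, a subunit of the CCR4-NOT deadenylase, had Ets21c alone, and CG6928 had PolII at 0.81. Both were listed with an Ets21c height of 0.91. The 239 bases between their annotated starts, at chr3L:12002916-12003154 on the plus strand, are given with the single DRE site in capitals. They held none of the other motifs.
Pop2 to CG6928: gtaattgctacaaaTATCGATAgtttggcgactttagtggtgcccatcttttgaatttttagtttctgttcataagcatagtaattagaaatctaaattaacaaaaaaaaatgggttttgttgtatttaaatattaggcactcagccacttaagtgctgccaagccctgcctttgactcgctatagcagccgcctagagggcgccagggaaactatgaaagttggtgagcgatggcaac

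The gene lists were set against the 31.9% of protein-coding genes with Ets21c, the 15.8% with PolII, the 11.2% with both and the 4.63% with PolII alone. Over the whole PolII list, 70.7% of genes also had Ets21c. Of 136 genes in the 8 signaling lists, 60 had PolII, and 58 of these (96.7%) also had Ets21c. Of 509 genes in 9 housekeeping families, 136 had PolII, and 71 of these (52.2%) also had Ets21c. Signaling genes are longer, with 51 of their 60 PolII genes in the longest group, of which 49 had Ets21c. In that group 13 of 16 PolII-listed housekeeping genes (81.3%) had Ets21c, as did 85.5% of all PolII genes there. In the shorter groups, from the shortest on, the housekeeping shares were 56.3%, 33.3% and 60.0%. For all PolII genes of these groups they were 46.0%, 54.8% and 66.3%. The housekeeping share was thus above the general one in the shortest group and below it in the others.

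In the JNK list, 9 of 18 genes had both, 4 Ets21c alone and 0 PolII alone. Both were listed for the TNF ligand egr (Ets21c 0.57, PolII 1.28), the kinases msn (0.65 and 0.65), Mekk1 (0.83 and 0.79), Tak1 (0.35 and 0.33) and bsk, which is JNK itself (0.55 and 1.08), and for the adaptor Traf4 (0.60 and 0.81). Of the outputs, kay, the JNK phosphatase puc (0.60 and 1.67) and the matrix metalloproteinase Mmp1 (0.56 and 1.12) had both. Ets21c alone was listed for hep, the kinase above bsk (0.61), Jra, the Jun partner of kay (0.78), Ask1 (0.53) and Cka (0.54). The other 5 were in neither list: the receptors wgn and grnd, the kinases slpr and Mkk4, of which Mkk4 also acts directly above bsk, and the adaptor Traf6.

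In the EGFR/Ras/ERK list, 14 of 25 genes had both, 4 Ets21c alone and 1, the adaptor drk (0.61), PolII alone. The receptor Egfr had 0.55 for Ets21c and 0.74 for PolII, its ligand spi 0.67 and 1.16, and Ras85D 0.42 and 1.43. Both were also listed for the ETS repressor aop (0.78 and 0.78), the ETS activator pnt (0.78 and 0.60), edl, which binds ETS factors (0.63 and 1.12), the repressor cic (0.91 and 0.61) and the inhibitors sty (0.60 and 1.09), aos (0.53 and 0.70) and Cbl (0.79 and 1.20). The ligands vn (0.50) and grk (0.64), the kinase Dsor1 (0.51) and the phosphatase csw (0.33) had Ets21c alone. In the Pvr and insulin/TOR list of 20 genes the counts were 9, 5 and 0, with both at InR (0.64 and 0.68), the kinase S6k (0.90 and 0.72) and the translation inhibitor Thor (0.55 and 1.62), and Ets21c alone at the receptor Pvr (0.91) and its ligand Pvf3 (0.57), while the ligands Pvf1 (0.48 and 0.67) and Pvf2 (0.25 and 0.53) had both.

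In the JAK/STAT list of 10 genes, 4 had both, 4 Ets21c alone and 1 PolII alone. The cytokine gene upd3 (0.77 and 1.03), the transcription factor Stat92E (0.63 and 1.02), the feedback inhibitor Socs36E (0.50 and 1.58) and the phosphatase Ptp61F (0.97 and 0.87) had both. The ligands upd1 (0.30) and upd2 (0.69) and the kinase hop (0.63) had Ets21c alone, and the receptor dome (0.36) PolII alone. In the Notch list of 20 genes the counts were 6, 8 and 0. The ligand Dl (0.50 and 0.71), the receptor N (0.47 and 0.49), neur, which activates the ligand (0.51 and 1.18), and the target E(spl)mbeta-HLH (0.58 and 1.76) had both, and the coactivator mam (0.53) and the corepressor gro (0.52) Ets21c alone. Of 11 genes of the E(spl) complex, 2 had both and 7 Ets21c alone.

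The Wnt, Hippo and Dpp/BMP lists had 4, 5 and 7 PolII genes, and none had PolII alone. These are few genes beside the 4.63% of all protein-coding genes with PolII alone. In the Wnt list of 17 genes 4 had both and 6 Ets21c alone. The receptor gene fz2 had 0.79 and 0.60, the kinase sgg 0.85 and 0.50 and arm, the fly β-catenin, 0.66 and 0.47, while pan, the TCF factor, had Ets21c alone (0.70). In the Hippo list of 13 genes the counts were 5 and 3, with both at the inhibitor of apoptosis Diap1 (0.53 and 1.5) and the TEAD factor sd (0.71 and 0.42), and Ets21c alone at the kinase wts (0.38). In the Dpp/BMP list of 13 genes they were 7 and 2, with both at the receptor tkv (0.66 and 0.72), the SMAD gene Mad (0.65 and 0.87) and the inhibitor Dad (0.59 and 1.08), and Ets21c alone at Med (0.65) and brk (0.41).

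**Figure D4:**
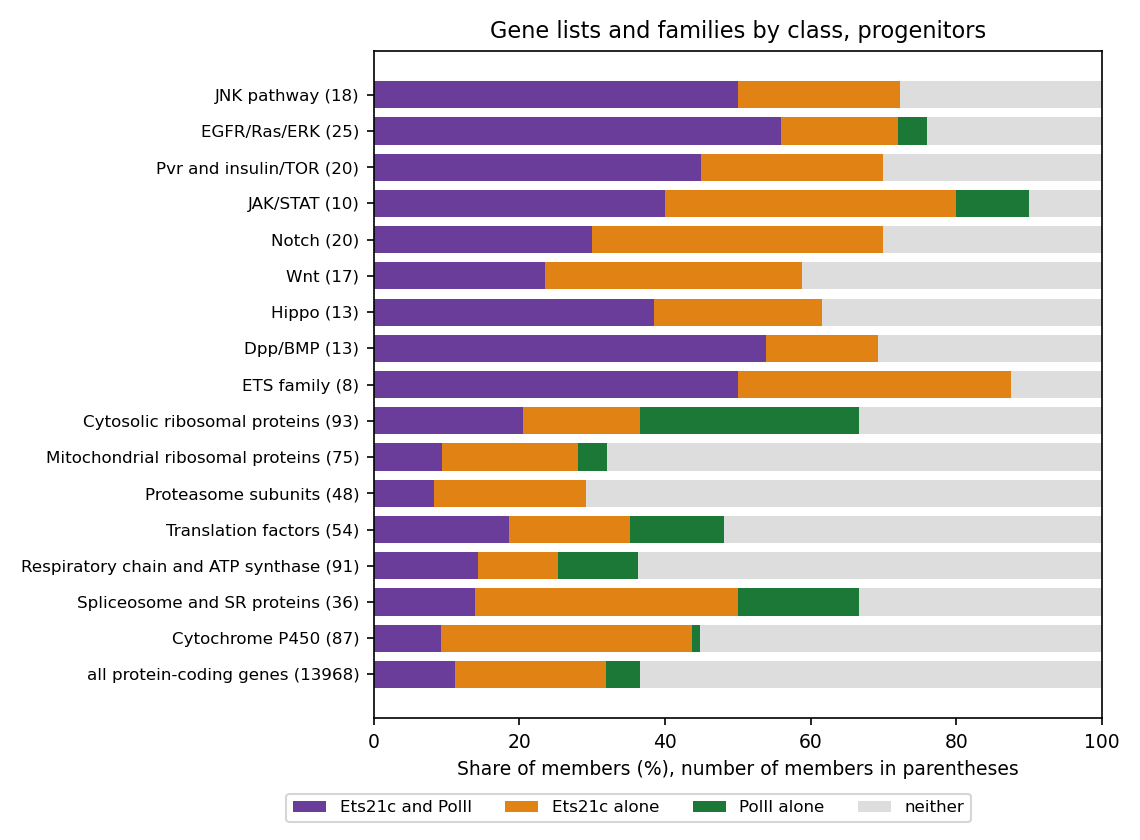
Share of the members of 16 gene lists and families, and of all protein-coding genes, in each class in ISCs/EBs (x axis, %). Purple is Ets21c and PolII, orange Ets21c alone, green PolII alone and gray neither, with the number of members in parentheses. PolII alone was listed for 2 of 136 signaling genes and 28 of 93 cytosolic ribosomal protein genes, against 4.63% of all protein-coding genes. Gene length differs between the lists.

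Of 8 ETS family genes, 4 had both and 3 Ets21c alone. Besides pnt and aop, both were listed for Eip74EF (0.55 and 0.56) and for Ets21C itself (0.36 and 0.62), whose coding sequence is also in the Dam-Ets21c transgene but not in that of Dam alone. The part of transgene reads in its Ets21c height was not tested. Ets65A (0.88), Ets96B (0.55) and Ets97D (0.38) had Ets21c alone. Of 9 genes picked because the study names them, in part for these very binding data, 7 had both and 2, fax and GstD10, had neither. Those with both included the mRNA-binding protein gene Imp (0.25 and 0.70) and the peroxiredoxin gene Jafrac1 (0.69 and 1.04). The paper names fax and GstD10 among genes that Ets21c regulates. It reports by qRT-PCR that several stress-response genes, which it describes as bound by Dam-Ets21c, required Ets21c, without naming them in that sentence. Of 25 genes for ecdysone-induced factors and nuclear receptors, 9 had both and 6 Ets21c alone, with Eip75B at 0.80 and 1.11 and Hnf4 at 0.63 and 1.11. Of 78 homeodomain genes 6 had both, 8 Ets21c alone and 1 PolII alone.

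The cell cycle list of 26 genes had 9 with both, 7 with Ets21c alone and 3 with PolII alone. The mitotic kinase Cdk1 had 0.68 and 1.27 and the growth regulator Myc 0.65 and 0.94. Cdk2 (0.78), CycE (0.34) and geminin, a replication licensing inhibitor (0.90), had Ets21c alone, and CycB (0.78), E2f2 (0.86) and Rbf (0.74) PolII alone. In the apoptosis list of 15 genes the counts were 8, 2 and 1, with the caspase gene Dcp-1 at 0.50 and 1.84 and the adaptor Dark at 0.89 and 0.37. In the list of oxidative stress and cytoprotection, 12 of 30 genes had both, 3 Ets21c alone and 7 PolII alone. The Nrf2 gene cnc had both (0.60 and 1.12), as did Gclm of glutathione synthesis (0.43 and 1.74) and Trxr-1 (0.47 and 1.42). Its inhibitor Keap1 (0.98), Trx-2, the chaperone gene Hsp83 (1.52), Xbp1 of the unfolded protein response (1.07) and the transferase gene GstD1 (1.62) had PolII alone.

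Cytosolic ribosomal protein genes were the largest group with PolII alone. Of 93, 19 had both, 15 Ets21c alone and 28 PolII alone, so that 40.4% of the PolII genes had Ets21c. PolII alone was highest at RpL15 (2.04), RpL21 (2.03) and RpL28, and with both at RpLP2 and RpS28b (0.47 and 2.05). RpL10, RpL23 and RpL26 (0.83 and 1.24) had the largest Ets21c heights. Respiratory chain and ATP synthase genes had 13, 10 and 10 of 91, translation factors 10, 9 and 7 of 54, spliceosome and SR protein genes 5, 13 and 6 of 36, Rab and Arf GTPases 9, 5 and 6 of 46, and vacuolar ATPase genes 2, 4 and 4 of 33, each in the order both, Ets21c alone and PolII alone.

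Of 48 proteasome genes, 4 had both, 10 Ets21c alone and none PolII alone. Only 4 thus had PolII, too few to set apart from the 4.63% of all protein-coding genes with PolII alone. Ets21c was listed for 29.2% of them, against 31.9% of protein-coding genes. Mitochondrial ribosomal protein genes had 7, 14 and 3 of 75, and tRNA synthetase genes 2, 7 and 1 of 33. Of 115 histone genes, 2 had both, His4r and His3.3B (0.34 and 1.44), and 1 Ets21c alone. Most of the histone genes are near-identical repeated copies, so their values are uncertain.

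In families of detoxification and sensing, most members were in neither list or had Ets21c alone. This also holds for protein-coding genes in general, with 8867 in neither list and 2889 with Ets21c alone of 13968. Of 87 cytochrome P450 genes, 8 had both, 30 Ets21c alone and 1 PolII alone. Ets21c was thus listed for 43.7% of them, against 31.9% of protein-coding genes, and PolII for 10.3%, against 15.8%. Several neighbors shared values, such as Cyp6a17, Cyp6a19 and Cyp6a23 at 0.44, and Cyp1 had the largest PolII height (0.56 and 1.93). Glutathione S-transferases had 7, 8 and 4 of 35, so that PolII was listed for 31.4%, against 15.8% of protein-coding genes. UDP-glycosyltransferases had 2, 12 and 2 of 35, with the pair CG10168 and CG10170 at an Ets21c height of 0.81 each and PolII at 1.62 and 1.72. Of 185 chemosensory receptor genes 1 had both, Ir21a (0.39 and 0.65), and 19 Ets21c alone. Odorant-binding protein genes had 0, 4 and 0 of 51, cuticular protein genes 1, 6 and 0 of 120, and the Jonah and trypsin protease genes of ECs 0, 4 and 0 of 27, with alphaTry and epsilonTry at 1.0 each.

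The classes were followed into ECs, where 26.5% of annotated genes were listed for Ets21c and 5.18% for PolII. Of the 1567 genes with both in ISCs/EBs, 1184 (75.6%) were listed for Ets21c in ECs, 473 (30.2%) for PolII and 387 (24.7%) for both. Of the 3617 genes with Ets21c alone, 2245 (62.1%) were listed for Ets21c in ECs and 91 (2.52%) for PolII. Of the 649 genes with PolII alone, 196 (30.2%) were listed for Ets21c in ECs, a share close to the 30.3% of all protein-coding genes, and 235 (36.2%) for PolII, against 6.78%. A gene with PolII alone in ISCs/EBs was thus listed for neither in ECs in 299 cases (46.1%), and a gene with both in 297 (18.95%).

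Genes that kept a listing had been higher in ISCs/EBs. The median Ets21c height of genes with both was 0.57 where Ets21c was also listed in ECs and 0.48 where it was not, and it was 0.54 and 0.48 for genes with Ets21c alone. The median PolII height was 1.23 and 0.75 for genes with both, and 1.27 and 0.86 for genes with PolII alone. In ECs the 473 genes had a median PolII height of 0.44. The whole EC PolII list had a median of 0.459, against 0.934 for the ISC/EB list, so 0.44 was near the general EC value. The samples of each cell type were divided by that cell type's own Dam samples. Of the JNK genes, kay, with both in ISCs/EBs, was listed in ECs for Ets21c (0.57) and not for PolII.

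**Figure D5:**
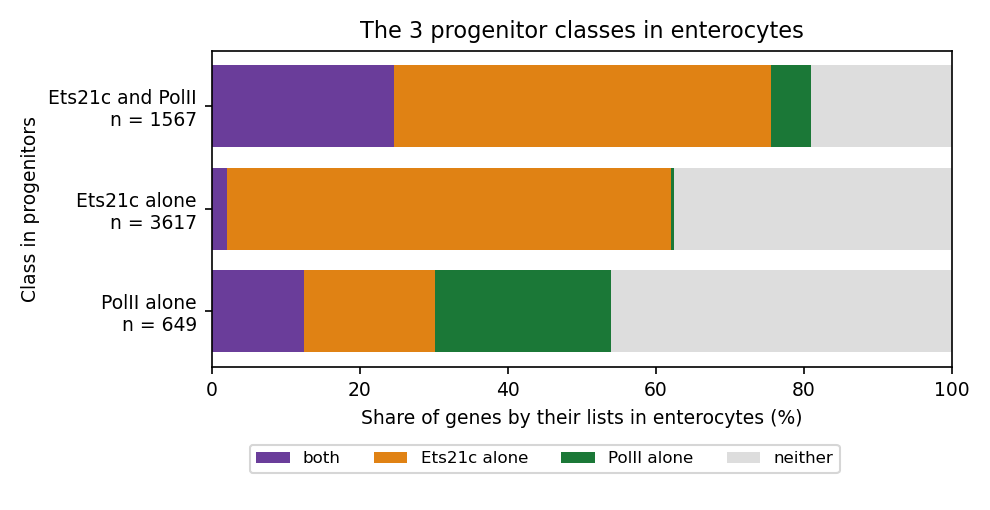
Share of the genes of each ISC/EB class (rows, with the number of genes) by their lists in ECs (x axis, %). Purple is Ets21c and PolII in ECs, orange Ets21c alone, green PolII alone and gray neither. Ets21c was listed in ECs for 75.6%, 62.1% and 30.2% of the 3 classes.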

How the data were processed

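TaDa libraries from dissected midguts were sequenced as single-end reads. Per GATC fragment, the authors computed the log2 ratio of fusion to Dam signal with the damidseq_pipeline. Ets21c peaks spanned at least 2 fragments in all replicates used and a gene received a peak up to 5 kb away unless another gene intervened. PolII was averaged over each gene and over replicates, and its FDR, the highest of the replicates, was modeled by gene size. The deposited table gives the pooled log2 height and the FDR (a q-value, deposited as the authors computed it) per gene. The deposited headings state an FDR under 0.01 and minimum heights of 0.3 for PolII and 0.1 for Ets21c in ISCs/EBs, whereas the methods state 0.3 for Ets21c peaks. The listed Ets21c heights start at 0.15, with 161 genes below 0.3, and were used as deposited. The submitters' processing notes name dm3, whereas the methods name a dm6 annotation, and peak coordinates were not used here.

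Lists were matched by gene ID and placed on the Ensembl release 115 annotation by ID, symbol or RefSeq locus tag (1 PolII and 16 Ets21c genes had no match). Of 13957 protein-coding genes compared, 13955 had the same start and end in RefSeq, whose Release 6 genome gave the sequences. Shares, medians and quartiles were computed with python 3.11.15, pandas 2.3.3 and numpy 2.4.6. The counting was tested on simulated data. The 4 groups of gene length were formed over all protein-coding genes. A shared peak is a run of listed neighbors, at most 10000 bp apart, with equal Ets21c height and FDR.

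Named genes are the 10 largest by each height and by their sum in each class, up to 6 members of each list and class, genes the study names, and neighbors with equal values; 1 of them is not reported here. The members, the 13 gene lists, 6 marker lists and 24 families were chosen with earlier results of these data known. Names of families were matched by symbol, so paralogs and pseudogenes count as members. Single replicates and read depth were not analysed here. Stricter heights and FDR, matching by symbol, protein-coding genes alone and 1 gene per shared peak were tried as alternatives.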

Additional observations from a re-analysis of the deposited data

How the results depend on the processing

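Of 62 values recomputed under the alternatives, 42 stayed within the tolerance, 19 moved and 1 changed sign. The tolerance was 1.5 times for a count, the exact 95% binomial interval over genes for a share and a rank-based interval of the medians for a height, so a count may stay within it after a larger relative change than a share. Both intervals treat genes as independent, although 65.0% of Ets21c genes had the same height and FDR as a listed neighbor. They serve only to sort the values and are not a test. With Ets21c heights of at least 0.5, genes with both, with Ets21c alone and with PolII alone numbered 1006, 2026 and 1210, since genes below 0.5 then count as without Ets21c. PolII was then listed for 33.2% of Ets21c genes and Ets21c for 45.4% of PolII genes, the PolII height differed by -0.0545 (with minus without Ets21c, main -0.12), and the Ets21c height of the highest minus the lowest of the 4 PolII groups was -0.01 (main 0.01). With PolII heights of at least 0.5 the share of Ets21c genes with PolII was 25.8%. With a PolII FDR of at most 0.001 there were 975 genes with both and 207 with PolII alone, the shares were 18.8% and 82.5%, the Ets21c height differed by 0.05 with minus without PolII (main 0.02), and the signaling and housekeeping shares of PolII genes with Ets21c were 100% and 63.3%. With protein-coding genes only, 35.1% of Ets21c genes had PolII. With 1 gene per shared peak, genes with both fell from 1567 to 1083, 2175 genes had Ets21c alone, the shares were 33.2% and 62.6%, and the PolII height differed by -0.17. This kept the first gene of each peak by position and dropped the others from both lists. Genes with PolII alone were hardly touched (649 and 648), so the share of PolII genes with Ets21c could only fall. The 33.2% also depends on which gene lies first.

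Of the alternatives added after the data were seen, counting each shared peak once gave a share of 41.8% with PolII. Here a peak counted as with PolII if any of its genes had PolII. Within the 4 groups of gene length, from the shortest to the longest, the PolII height differed by 0.13, 0.10, 0.14 and 0.11, the opposite sign of the pooled -0.12, and the Ets21c height by -0.01 in the shortest group. The Ets21c differences, up to 0.05, are small against the range of listed heights and have no replicate check.

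No paired analysis was possible because the deposited table holds 1 pooled value per gene and its columns carry no replicates. Replicates could not be left out in turn, for the same reason, and the authors' omission of Ets21c replicate 2 was kept. Of the alternatives, matching by symbol moved no count by more than 1 gene. Absence from a list says that a gene did not pass the authors' cutoffs, not that the protein was absent, and values of genes outside the lists were not analysed here.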
